A study of Homo sapiens with 2 samples.

Results

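Repair genes of the excision, interstrand crosslink and double-strand break pathways were compared between drug-resistant A2780 ovarian carcinoma cells and their controls. The set holds 44 genes of the 30238 gene names on the array. They were chosen by name, as probes whose gene name is one of 16 nucleotide excision repair genes, 4 genes of base excision and single-strand break repair, 7 Fanconi genes, 8 homologous recombination genes, 5 end joining genes, 2 damage kinases and 2 translesion polymerases. All 44 were on the array, with 66 of its 41000 probes.

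The cells were A2780, an established line from a human ovarian carcinoma. A2780CBN was selected in rising doses of carboplatin, to 22.2 µM, and A2780CBNDXL in rising doses of carboplatin together with docetaxel. The carboplatin dose reached in A2780CBNDXL was lower than that in A2780CBN. The lines therefore differ in carboplatin dose as well as in docetaxel, and the part of each in the differences between them was not tested. The control of each line, labelled A2780CC, was A2780 carried beside the selection without drug. Both controls bear 1 name in the labels, and the study's methods describe a control grown for each line. Pooled RNA of 3 isolations per line was hybridized beside control RNA in the other dye to 4 arrays, of which arrays 1 and 3 had forward and arrays 2 and 4 reverse labelling. Each line is therefore 1 sample of a single selected culture. The SD between its arrays holds only the error of labelling and hybridization, and differences between cultures could not be tested. In RNA of a whole culture, fewer cells that express a gene and less RNA per cell cannot be told apart.

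Carboplatin places platinum on neighbouring bases of a DNA strand and, less often, links the strands to each other. Adducts within a strand are cut out by nucleotide excision repair, while crosslinks between strands are unhooked with the help of the Fanconi proteins, bypassed by translesion polymerases and rejoined by homologous recombination. Docetaxel acts on microtubules and not on DNA. Ovarian tumours with lesions in BRCA1 or BRCA2 are known for their sensitivity to platinum.

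The share of spots well above background ran from 59.4% to 67.5% over the channels, and no spot was saturated. Of the markers of carcinoma cells fixed for the check, 3 of 8 were well above background in all groups (KRT8, KRT18 and PAX8) and CDH1, WT1 and MUC16 were in none. Of the markers of other cell types, PTPRC, HBB, PECAM1 and CDH5 were above background in none, and CD3E and CD14 of 5 blood markers were above it in all. Markers of fibroblasts and mesothelium differed between resistant and control channels, with 3 of 7 above background in all groups (COL1A1, COL3A1 and DCN) and MSLN in none. The summed signal of these 7 on an array was 36620 to 46030 in A2780CBN against 13110 to 19710 in its control, and 45900 to 62860 in A2780CBNDXL against 21450 to 29090. That of the 8 carcinoma markers was also higher in the resistant channels, at 3678 to 4156 against 2220 to 2340 and 3231 to 4253 against 2273 to 2867, with EPCAM at 2.07 and 1.67 on the log2 scale. Within the fibroblast list COL1A2 went the other way, at -5.67 and -2.81 on the log2 scale, and DCN read 2.21 and 3.62. COL3A1 made up most of the summed signal of that list, at 1.44 and 1.16 on the log2 scale. Its mean signal was 40140 against 14980 in A2780CBN and 42590 against 19090 in A2780CBNDXL. The part of these markers in the results below was not tested. Over all probes, r between a forward and a reverse array was 0.581 to 0.611 in A2780CBN and 0.727 to 0.739 in A2780CBNDXL, and 0.852 to 0.898 between arrays labelled in 1 direction. Many values below therefore differ between the labelling directions.

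Few repair genes moved far from the control in either line. A gene was called when its mean log2 ratio of resistant over control was at least 1 in size (2-fold), of 1 sign over the 4 arrays, and its probe was well above background in 1 of the channels on every array. In A2780CBN, 1 of the 41 repair genes that could be measured was called, namely DDB2, against 12.6% of all genes (2253 of 17951). In A2780CBNDXL, 2 of 42 were called, against 16.9% of all genes (2893 of 17116). ERCC2 was higher, as were 7.70% of all genes, and NBN lower, as were 9.20%. At a limit of 1.5-fold, 6 of 41 were called in A2780CBN against 27.1% of all genes, with 4 higher and 2 lower beside 14.6% and 12.5%. In A2780CBNDXL 10 of 42 were called at that limit against 33.3%, with 5 higher and 5 lower beside 16.4% and 16.9%. With normexp background correction and loess, the means of 2 of these 6 and 5 of these 10 stayed past 1.5-fold. Against the control channels of the other line's arrays, 4 of 6 and 4 of the 9 with a value did. The median log2 ratio of the repair genes was -0.028 in A2780CBN and 0.061 in A2780CBNDXL, beside -0.060 and 0.039 over all genes. The median size of their ratio, without its sign, was 0.28 and 0.39 on the log2 scale, beside 0.33 and 0.39. In 12 of the 41 genes in A2780CBN and 8 of the 42 in A2780CBNDXL the means of the 2 labelling directions lay on opposite sides of 0, against 5480 of the 17951 and 4041 of the 17116 genes in all. Where a repair gene had further measurable probes, 13 of 17 in A2780CBN and 13 of 16 in A2780CBNDXL had the sign of the brightest one.

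**Figure D1:**
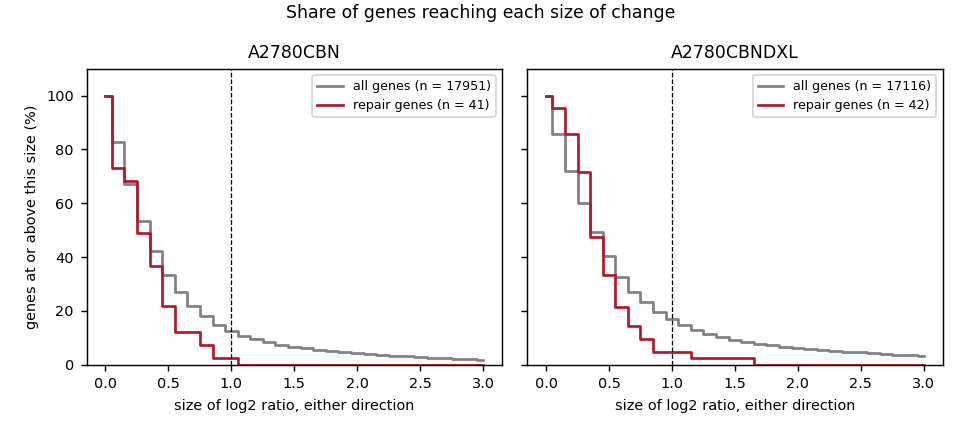
Share of measurable genes (percent, y axis) whose mean log2 ratio is at least the size on the x axis, in either direction, for all genes (grey) and the repair genes (red), with 1 panel per line and a dashed line at 2-fold. At 2-fold the repair genes stand at 2.44% and 4.76%, against 12.6% and 16.9% of all genes. Of all genes with both channels above background, as in the repair genes, 9.07% and 12.6% were called.

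4 genes had no value by the rule in one or both lines. XPC, FANCL and XRCC6 in A2780CBN and RPA1 and FANCL in A2780CBNDXL had 1 of 4 spots marked as an outlier by the scanner software, and their values below are over 3 arrays. In every repair gene with a value, both channels were well above background on all 4 arrays. Among all genes held to that stricter limit, 9.07% were called at 2-fold in A2780CBN and 12.6% in A2780CBNDXL.

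**Figure D2:**
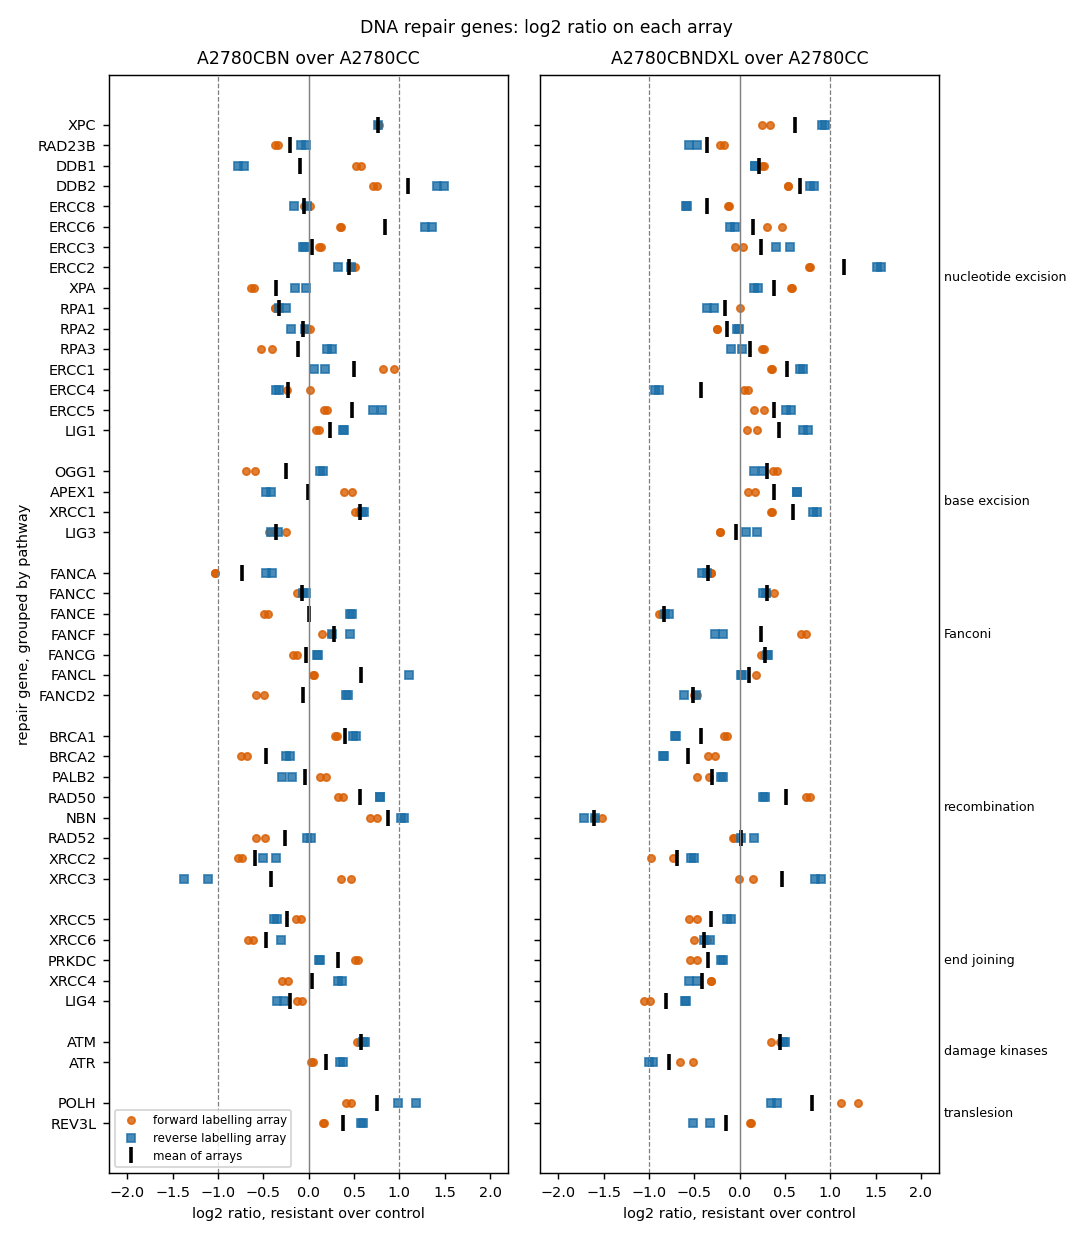
Log2 ratio of resistant over control (x axis) of the 44 repair genes (y axis, by pathway) on each array, with forward labelled arrays as circles, reverse labelled arrays as squares and the mean as a black tick. Dashed lines mark 2-fold. DDB2 in A2780CBN and ERCC2 and NBN in A2780CBNDXL pass it in the mean, and NBN lies to the right of 0 in one line and to the left in the other.

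In nucleotide excision repair, the damage sensors DDB2 and XPC stood above the control on every usable array of both lines. DDB2, the damage-binding subunit that finds lesions for XPC and is known as a target of p53, was the only repair gene called in A2780CBN. Its log2 ratio on arrays 1 to 4 was 0.71, 1.49, 0.76 and 1.42, a mean of 1.09 ± 0.42 (SD, n = 4 arrays) or 2.13-fold. All 4 arrays were above 0, and the reverse labelled arrays read higher than the forward ones. In A2780CBNDXL the values were 0.53, 0.78, 0.53 and 0.82, with a mean of 0.66 ± 0.15, so that every array there was also above 0 but the mean stayed under 2-fold. Which line passed 2-fold depended on the control, since against the control channels of the other line's arrays DDB2 was at 0.71 in A2780CBN and 1.05 in A2780CBNDXL. The probe lies on chromosome 11 at chr11:47217199-47217258 of NCBI36.

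The start of DDB2 is shown because it holds a full p53 site, meaning 2 copies of the p53 half-site consensus up to 13 bases apart, searched on both strands. Among 35116 RefSeq promoter windows of 300 bases (250 before and 50 after a transcript start, GRCh38.p14), 10 held such a site, or 0.0285%, while 6.63% held a single half-site. Of the 44 repair genes, 39 had a window in this table and RPA2, RPA3, NBN, XRCC5 and PRKDC had none. DDB2 was the only one of the 39 with a half-site or a full site. The stretch runs from 74 bases before a start of DDB2 to the end of the site at base 26 after it, on the + strand of GRCh38.p14 at chr11:47214900-47214999, with the half-sites in capitals.
DDB2: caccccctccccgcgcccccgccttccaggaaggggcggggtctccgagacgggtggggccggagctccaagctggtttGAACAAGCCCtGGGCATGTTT
A match describes these letters and is not a measured binding site.

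XPC, which detects the distorted helix and opens global repair, had log2 ratios of 0.76, 0.76 and 0.78 on the 3 usable arrays of A2780CBN, a mean of 0.77 ± 0.0098. In A2780CBNDXL it read 0.25, 0.90, 0.34 and 0.94, a mean of 0.61 ± 0.36, past 1.5-fold (0.44 with normexp and loess) and above 0 on every array. Its probe is shown because it reads the last codons of the message. The probe sits on the - strand of NCBI36 at chr3:14162442-14162501, and the capitals mark the stop codon.
XPC probe: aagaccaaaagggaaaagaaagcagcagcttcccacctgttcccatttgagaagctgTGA

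The partners of these sensors gave smaller values. DDB1, which holds DDB2 in a ubiquitin ligase, was at -0.10 ± 0.75 in A2780CBN, where the labelling directions opposed each other (0.55 forward and -0.75 reverse), and at 0.21 ± 0.053 in A2780CBNDXL. RAD23B, the partner that stabilizes XPC, was below 0 on every array, with means of -0.21 ± 0.17 and -0.35 ± 0.18. Its other probes read -0.42 and -0.68 in A2780CBN, and -0.11 and 0.14 in A2780CBNDXL, so 1 of the 3 probes had the opposite sign there. In transcription-coupled repair, ERCC6 (CSB), the remodeller at stalled polymerases, read 0.34, 1.28, 0.36 and 1.36 in A2780CBN, a mean of 0.84 ± 0.56 that passed 1.5-fold, with the reverse arrays far above the forward ones. It was 0.40 with normexp and loess. In A2780CBNDXL it was 0.15 ± 0.28. Its partner ERCC8 (CSA) was at -0.051 ± 0.076 and -0.36 ± 0.27.

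ERCC2 (XPD), the TFIIH helicase that unwinds and checks the strand, was called in A2780CBNDXL. Its array values were 0.76, 1.52, 0.78 and 1.55, a mean of 1.15 ± 0.44 or 2.22-fold, with every array above 0 and the reverse arrays well above the forward ones. In A2780CBN the same probe read 0.48, 0.47, 0.51 and 0.32, a mean of 0.45 ± 0.083. A second ERCC2 probe gave 0.57 ± 0.13 in A2780CBNDXL and -0.039 ± 0.084 in A2780CBN, so both probes were above 0 in the dual-resistant line but the second stayed under 2-fold there and on the other side of 0 in A2780CBN. The ERCC2 call did not hold with the mean over both probes (0.86) or with normexp background correction and loess (0.83). Both probes are shown because they read different stretches of 1 message and differ in size. They lie on the - strand of NCBI36, the first at chr19:50548355-50548414 and the second at chr19:50556655-50556714, nearer the start of the gene. No part is set in capitals.
ERCC2 probe 1: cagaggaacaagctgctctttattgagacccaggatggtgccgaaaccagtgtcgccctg
ERCC2 probe 2: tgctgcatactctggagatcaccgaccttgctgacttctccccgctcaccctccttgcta

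The other excision genes stayed under 1.5-fold. ERCC3 (XPB), the second TFIIH helicase, was at 0.037 ± 0.10 and 0.24 ± 0.29 in A2780CBN and A2780CBNDXL. XPA, which verifies the lesion, was below 0 on every array of A2780CBN (-0.64, -0.16, -0.60 and -0.034) and above 0 on every array of A2780CBNDXL (0.56, 0.20, 0.58 and 0.16). ERCC1, which cuts on the 5′ side with ERCC4 (XPF) and is often measured in platinum-treated tumours, had means of 0.50 ± 0.45 and 0.52 ± 0.19 and was above 0 on all 8 arrays. ERCC4 itself was at -0.23 ± 0.17 and -0.42 ± 0.56, the lowest of the excision genes in the dual-resistant line. There its labelling directions opposed each other (0.067 forward and -0.91 reverse). Its other probes read -0.13 and -0.57 in A2780CBN, and -0.051 and -0.24 in A2780CBNDXL. ERCC5 (XPG), the 3′ nuclease, was at 0.47 ± 0.33 and 0.38 ± 0.20, and LIG1, which seals the patch, at 0.24 ± 0.17 and 0.43 ± 0.34. The single-strand binding genes RPA1, RPA2 and RPA3 had means of -0.33, -0.062 and -0.12 in A2780CBN and -0.16 (3 arrays), -0.13 and 0.11 in A2780CBNDXL. Over the 15 excision genes with a value in each line, the median was -0.051 in A2780CBN (7 above 0 and 8 below) and 0.24 in A2780CBNDXL (11 above and 4 below). Of all genes, 8072 of 17951 lay above 0 in A2780CBN and 9039 of 17116 in A2780CBNDXL, with medians of -0.060 and 0.039. In 3 and 4 of the 15 excision genes the labelling directions opposed each other.

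In base excision and single-strand break repair no gene was called at 2-fold. XRCC1, the scaffold that gathers the single-strand break enzymes, was the highest of the 4 in both lines. Its array values were 0.51, 0.61, 0.56 and 0.58 in A2780CBN, a mean of 0.56 ± 0.041, and 0.35, 0.80, 0.35 and 0.85 in A2780CBNDXL, a mean of 0.59 ± 0.28. All 8 arrays were above 0, and only the second mean passed 1.5-fold (0.55 with normexp and loess, 0.21 against the other line's control). Its ligase partner LIG3 was the lowest in both, at -0.36 ± 0.083 and -0.041 ± 0.20, and its second probe read -0.59 and 0.10. APEX1, which nicks abasic sites, was at -0.0032 ± 0.51 in A2780CBN, with forward and reverse arrays on opposite sides of 0, and at 0.38 ± 0.29 in A2780CBNDXL, and a second probe of it read 0.053 and 0.44.

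OGG1, the glycosylase for oxidized guanine, has messages with different ends, and its 3 probes read different amounts of change. The brightest probe gave -0.25 ± 0.45 in A2780CBN and 0.30 ± 0.11 in A2780CBNDXL. A probe further along the gene gave 0.061 ± 0.11 and 0.58 ± 0.10. The probe nearest the start of the gene gave -0.16 ± 0.074 in A2780CBN, and in A2780CBNDXL its values were 0.50, 1.40, 0.64 and 1.51, a mean of 1.01 ± 0.52 that passed the 2-fold rule as a probe. All 3 probes were thus above 0 in the dual-resistant line and differed there from 1.23-fold to 2.02-fold. Between the lines the probe nearest the start differed by -1.18 ± 0.47, past 2-fold in the mean with 1 sign in all 4 pairs of arrays. More of this lay in the controls. After scaling between arrays, A2780CBN minus A2780CBNDXL was -0.50 ± 0.13 in the resistant channels and 0.67 ± 0.42 in the control channels. That probe, on the + strand of NCBI36 at chr3:9768551-9768610, is shown because it is the only one of the 3 past 2-fold.
OGG1 probe: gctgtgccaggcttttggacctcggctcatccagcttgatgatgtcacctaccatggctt

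In the Fanconi group no gene was called at 2-fold in either line, and 1 gene in each passed 1.5-fold, both lower. FANCA, a core complex subunit, read -1.03, -0.41, -1.03 and -0.47 in A2780CBN, a mean of -0.73 ± 0.34 (-0.32 against the other line's control), and -0.32, -0.35, -0.32 and -0.41 in A2780CBNDXL, a mean of -0.35 ± 0.045, below 0 on all 8 arrays. FANCE, the subunit that brings the core complex to FANCD2, read -0.86, -0.77, -0.89 and -0.82 in A2780CBNDXL, a mean of -0.84 ± 0.052 or 0.56-fold with close arrays, and -0.44 against the other line's control. In A2780CBN its forward and reverse means were -0.47 and 0.47, which leaves no direction there, while in A2780CBNDXL all arrays were low. FANCD2, which the complex marks with ubiquitin, was at -0.52 ± 0.067 in A2780CBNDXL and -0.059 ± 0.56 in A2780CBN, again with opposed labelling directions in the latter. Another FANCD2 probe read -0.16 ± 0.31 in A2780CBNDXL (-0.41 forward and 0.098 reverse) and -0.025 ± 0.15 in A2780CBN. Its labelling directions opposed each other in both lines, so the close low arrays in A2780CBNDXL were not shared by this probe. A dimmer probe read -0.63 ± 0.60 in A2780CBN and was not well above background on all arrays of A2780CBNDXL. FANCC was the highest of the group in A2780CBNDXL at 0.31 ± 0.050 and stood at -0.076 ± 0.040 in A2780CBN. Among the genes with a value on all 4 arrays FANCF was the highest in A2780CBN at 0.28 ± 0.13, and at 0.24 ± 0.54 in A2780CBNDXL. The remaining means were under 1.5-fold. FANCG was at -0.028 ± 0.15 and 0.28 ± 0.036. FANCL, the ubiquitin ligase of the complex, read 0.060, 1.11 and 0.050 on 3 arrays of A2780CBN, a mean of 0.58, where the 1 usable reverse array stood apart from the forward ones, and 0.19, 0.028 and 0.019 on 3 of A2780CBNDXL. The medians of the 6 genes with a value were -0.043 and -0.056.

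Among the recombination genes NBN stood apart, on opposite sides of the control in the 2 lines. NBN (nibrin) joins RAD50 in the complex that senses and trims broken ends. In A2780CBNDXL its log2 ratios were -1.61, -1.60, -1.51 and -1.72, a mean of -1.61 ± 0.085 or 0.328-fold of the control, the lowest of the 42 genes. In A2780CBN they were 0.75, 1.02, 0.68 and 1.05, a mean of 0.88 ± 0.19 or 1.84-fold, past 1.5-fold and under 2-fold. A second NBN probe gave -1.08 ± 0.088 and 0.63 ± 0.11. Both probes were therefore below 0 on all 4 arrays of A2780CBNDXL and above 0 on all 4 of A2780CBN, with no overlap. The first probe spans a splice junction between bases 91027696 and 91029283 of chromosome 8 in NCBI36.

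RAD50 itself was above 0 on all arrays of both lines, with means of 0.57 ± 0.25 and 0.51 ± 0.28, and its second probe read 0.10 and 0.75. BRCA1, which directs broken ends to recombination, read 0.31, 0.48, 0.29 and 0.52 in A2780CBN and -0.17, -0.71, -0.14 and -0.70 in A2780CBNDXL. Every array was above 0 in the first and below 0 in the second, with means of 0.40 ± 0.12 and -0.43 ± 0.32 that were both under 1.5-fold. BRCA2, a recombination mediator, was at -0.47 ± 0.28 and -0.57 ± 0.31, and PALB2, which links BRCA1 and BRCA2, at -0.042 ± 0.23 and -0.30 ± 0.13. XRCC2, a recombination factor, passed 1.5-fold downward in both lines, with values of -0.74, -0.51, -0.78 and -0.36 in A2780CBN and -0.74, -0.51, -0.98 and -0.54 in A2780CBNDXL. Its means were -0.60 ± 0.20 and -0.69 ± 0.22, and its second probe, at -0.85 ± 0.13 and -0.62 ± 0.30, had the same sign. With normexp and loess the means were -0.16 and -0.23, and with background-subtracted signals centred on the median -0.39 and -0.72, so XRCC2 did not stay past 1.5-fold in A2780CBN under either. The control channels of the 2 lines differed by 0.55 ± 0.15 on the scaled log2 scale for its first probe and by 0.016 ± 0.45 for the second. Against the other line's control the first probe was at -0.043 in A2780CBN and -1.24 in A2780CBNDXL. XRCC3, another recombination factor, was at -0.42 ± 0.96 in A2780CBN, with 0.41 forward and -1.25 reverse, and at 0.47 ± 0.47 in A2780CBNDXL. RAD52, an annealing factor, was at -0.26 ± 0.31 and 0.011 ± 0.11. The group medians were -0.15 and -0.36 over 8 genes.

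The end joining genes all lay below the control in the dual-resistant line, and LIG4 passed 1.5-fold. All 5 had a mean below 0 in A2780CBNDXL, as did 8077 of the 17116 genes in all, from -0.81 to -0.32 with a median of -0.40, while over the 4 with a value in A2780CBN the median was -0.083. LIG4, the ligase that seals the break, read -1.06, -0.59, -0.99 and -0.60 in A2780CBNDXL, a mean of -0.81 ± 0.25 (-0.20 with normexp and loess, -0.50 against the other line's control), and -0.21 ± 0.13 in A2780CBN, and its 2 other probes were not well above background on all arrays of either line. XRCC4, its partner, was at -0.42 ± 0.12 and 0.040 ± 0.35 in the same order. The Ku genes XRCC5 and XRCC6, whose products clasp the broken end, had means of -0.24 ± 0.15 and -0.47 ± 0.20 (3 arrays) in A2780CBN and -0.32 ± 0.23 and -0.40 ± 0.074 in A2780CBNDXL. The second XRCC6 probe read -0.23 ± 0.10 and 0.059 ± 0.40, the latter with opposed labelling directions. PRKDC, the kinase that Ku recruits, was above 0 on every array of A2780CBN (0.32 ± 0.24) and below 0 on every array of A2780CBNDXL (-0.35 ± 0.18). Its second probe gave -0.24 ± 0.29 in A2780CBN, so that direction was not shared by both probes, and -0.47 ± 0.17 in A2780CBNDXL.

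Of the damage kinases, ATM stood above the control in both lines and ATR on opposite sides of it. ATM, which answers to double-strand breaks, had close arrays with means of 0.58 ± 0.035 and 0.44 ± 0.066, above 0 on all 8 and under 1.5-fold. ATR, which answers to stalled forks, read -0.66, -0.996, -0.52 and -0.95 in A2780CBNDXL, a mean of -0.78 ± 0.23 past 1.5-fold (-0.57 against the other line's control), and 0.044, 0.38, 0.021 and 0.34 in A2780CBN, a mean of 0.20 ± 0.19. Its probe on the - strand at chr3:143651054-143651113 of NCBI36 is shown because among the brightest probes of the repair genes it had the largest difference between the lines after NBN.
ATR probe: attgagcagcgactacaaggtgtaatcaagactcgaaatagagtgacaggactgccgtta

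POLH (polymerase eta), which copies past platinum-linked bases, was past 1.5-fold in both lines. It read 0.46, 0.98, 0.41 and 1.18 in A2780CBN and 1.31, 0.35, 1.12 and 0.41 in A2780CBNDXL, means of 0.76 ± 0.38 and 0.80 ± 0.49, with all 8 arrays above 0. With normexp and loess both means were 0.52, under 1.5-fold, and against the other line's control they were 0.996 and 0.56. The reverse arrays were the higher ones in A2780CBN and the forward arrays in A2780CBNDXL. A second bright probe gave 0.62 ± 0.093 and 0.75 ± 0.28. REV3L, the catalytic subunit of polymerase zeta, was at 0.37 ± 0.24 in A2780CBN and -0.15 ± 0.32 in A2780CBNDXL, where the labelling directions opposed each other.

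The lines were then set beside each other, as the log2 ratio in A2780CBN minus that in A2780CBNDXL on arrays of the same slide and labelling direction. Of the 40 repair genes with a value in both lines, 1 differed by at least 2-fold with the same sign in all 4 pairs, NBN, against 16.6% of all genes (2675 of 16131). The NBN difference was 2.49 ± 0.26 (SD, n = 4 pairs of arrays). ATR was next at 0.98 ± 0.42, followed by FANCE at 0.84 ± 0.50 and BRCA1 at 0.83 ± 0.44. XRCC3 read -0.89 ± 1.43, with an SD larger than the difference. On the side of higher ratios in A2780CBNDXL, XPA differed by -0.73 ± 0.53 and ERCC2 by -0.71 ± 0.50. The OGG1 probe nearest the gene's start, not its brightest, is given above. The median size of the difference, without its sign, was 0.31 over the repair genes and 0.43 over all genes. For NBN the resistant channels of the 2 lines, after scaling between arrays, differed by 2.34 ± 0.11 and the control channels by -0.15 ± 0.16, and for ATR by 0.77 ± 0.11 and -0.21 ± 0.32. For PRKDC the resistant channels differed by 0.010 ± 0.20 and the control channels by -0.66 ± 0.61.

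Genes next to NBN stood on the same sides of the control as NBN. These were looked at after NBN had been seen on opposite sides in the lines. RIPK2, a kinase of NOD receptor signalling, lies 156 kb to one side of the NBN probe on NCBI36 and read 1.76 ± 0.13 in A2780CBN and -3.33 ± 0.13 in A2780CBNDXL. OSGIN2, 20.8 kb away on that side, read 0.77 ± 0.32 and -2.26 ± 0.17. On the other side, DECR1, a mitochondrial enzyme of fatty acid oxidation, read 1.70 ± 0.20 and -0.37 ± 0.089 (3 arrays in the latter), CALB1 (calbindin) 1.17 ± 0.24 and not well above background in A2780CBNDXL on all arrays, and TMEM64, 678 kb away, 0.91 ± 0.12 and -0.57 ± 0.016. A transcript without a gene symbol, 1011 kb away, read 2.48 ± 0.14 in A2780CBN and in A2780CBNDXL was at least 4.29-fold lower than the control, as its resistant channel was not well above background. From TMEM55A, 1048 kb away, the lines had 1 sign, with 0.19 ± 0.40 and 0.31 ± 0.072 there and -0.86 ± 0.13 and -0.79 ± 0.12 at OTUD6B. Within 1500 kb of NBN, 5 of 10 other measurable genes were called higher in A2780CBN and none lower. In A2780CBNDXL 3 of 7 were called lower and none higher, and of these 7 the ones from RIPK2 to the unnamed transcript were all below 0. Around ERCC2, 4 of 80 genes were called higher in A2780CBN and none lower, and 6 of 85 higher and 3 lower in A2780CBNDXL. Around DDB2, 1 of 39 was called higher in A2780CBN and none lower, and 3 higher and 1 lower in A2780CBNDXL. Beside these counts and those of neighbours below, 12.6% of all genes were called in A2780CBN, in either direction. Of the 17951 genes there, 1436 were called higher and 817 lower. In A2780CBNDXL 7.70% of all genes were called higher and 9.20% lower.

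**Figure D3:**
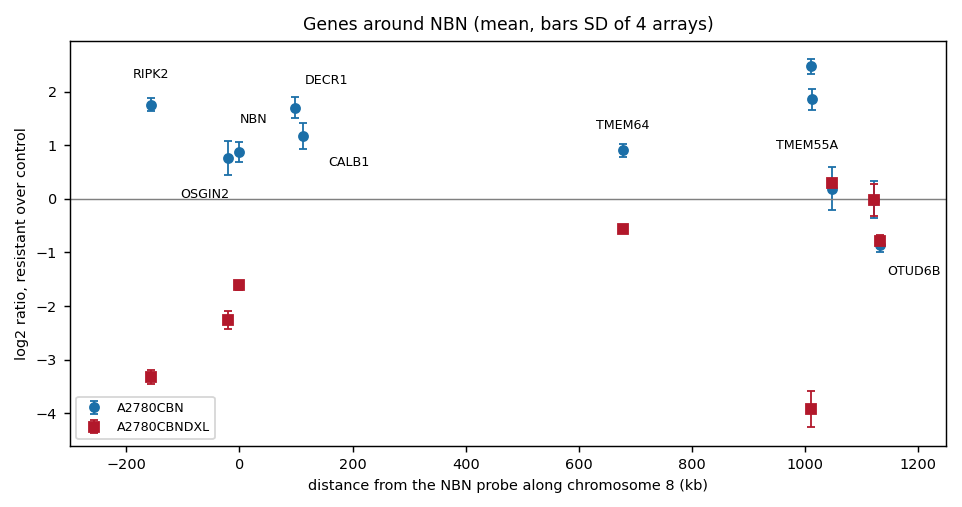
Mean log2 ratio of resistant over control (y axis, bars SD of 4 arrays) of the measurable genes around NBN, by distance from the NBN probe in kb (x axis), for A2780CBN (blue circles) and A2780CBNDXL (red squares). From RIPK2 to TMEM64 the points of A2780CBN lie above 0 and those of A2780CBNDXL below, and at TMEM55A and OTUD6B the lines lie close together.

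For every repair gene the median over the 5 measurable genes on each side was also taken. It was 1.44 around NBN in A2780CBN, the largest of the 44, and -0.78 in A2780CBNDXL. Of the 10 neighbours, 6 were called higher and none lower in A2780CBN, and 3 lower and 1 higher (at 3.19) in A2780CBNDXL. In A2780CBNDXL the median was as low around ATR, at -0.79 with 5 of 10 neighbours called lower and none higher, where ATR itself was at -0.78. It was -0.73 around ERCC8 in that line with 4 of 10 called lower, and 0.72 and 0.70 around BRCA1 and RAD50 in A2780CBN, with 4 and 3 of 10 called higher. Neighbours and member did not always go together, since the median around ATM in A2780CBNDXL was -0.59 while ATM was at 0.44. The cause of these shared values was not tested.

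Few other genes of the same pathways were called at 2-fold either, but in both lines more of them lay below the control than above it. Of 40 further excision repair genes 37 had a value in each line. None was called in A2780CBN, and in A2780CBNDXL MNAT1, the assembly factor of the TFIIH kinase, was lower at -1.97 ± 0.29 and XAB2, a partner of XPA, higher at 1.001 ± 0.35. In A2780CBN the same genes read -0.98 ± 0.45 and -0.010 ± 1.29. Of 18 listed further Fanconi and crosslink genes 15 had a value and none was called in either line at 2-fold, and at 1.5-fold 0 were called in A2780CBN and 2 in A2780CBNDXL. Of 30 further recombination and end joining genes 1 of 30 was called in A2780CBN, APLF, an end joining factor, and 0 of 26 in A2780CBNDXL. The APLF ratio is a bound of at least 3.65-fold higher, because its control channel failed the background limit on all 4 arrays and it could be called only through the resistant channel. Of 22 genes of damage signalling and bypass, 20 had a value in each line. HUS1 of the checkpoint clamp (-1.02 ± 0.35) and TIPIN of the fork protection complex (-1.07 ± 0.25) were lower in A2780CBN, and HLTF, a translocase of damage tolerance, was lower in A2780CBNDXL (-1.06 ± 0.24). In A2780CBNDXL HUS1 read -0.10 ± 0.15 and TIPIN -0.83 ± 0.33, and in A2780CBN HLTF read -0.065 ± 0.10. Over the 4 lists, 3 of 102 genes were called in A2780CBN and 3 of 98 in A2780CBNDXL, against 12.6% and 16.9% of all genes, with medians of -0.13 and -0.21. Below 0 lay 70 of the 102 and 67 of the 98, beside 9879 of 17951 and 8077 of 17116 genes in all. Among the 44 repair genes, 23 of 41 and 20 of 42 lay below 0. At 1.5-fold the 4 lists had 2 higher and 9 lower in A2780CBN, and 3 higher and 13 lower in A2780CBNDXL. The shares of all genes were 14.6% and 12.5%, and 16.4% and 16.9%.

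**Figure D4:**
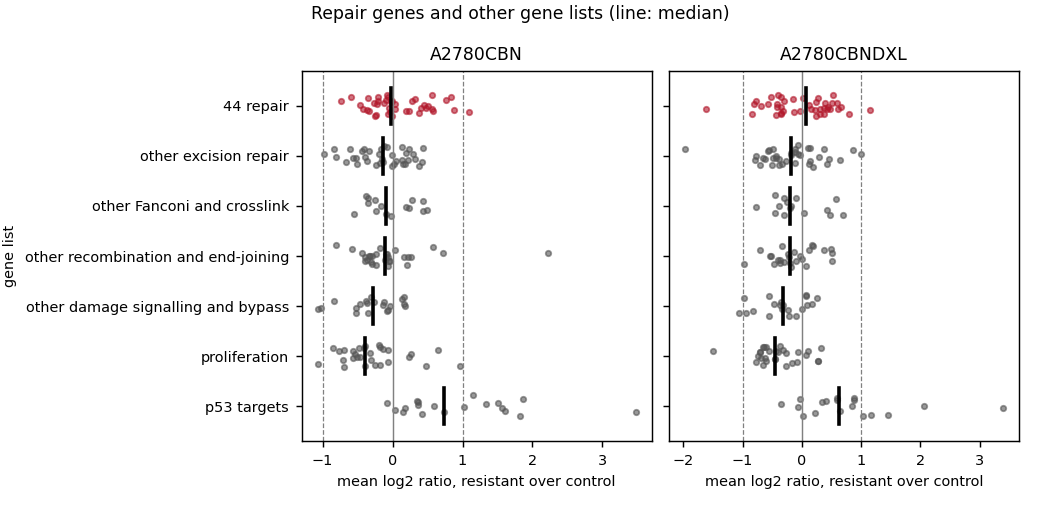
Mean log2 ratio of resistant over control (x axis) of each measurable gene of the 44 repair genes (red) and of the other lists (grey), with 1 row per list and 1 panel per line. Black ticks are medians and dashed lines mark 2-fold. The medians of the repair lists lie between -0.32 and 0.061, proliferation genes lie at medians of -0.39 and -0.45, and p53 targets at 0.73 and 0.62.

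Proliferation genes stood on the low side and p53 targets on the high side in both lines. Many recombination and Fanconi genes are made mainly in dividing cells. In each line 24 of 29 proliferation genes had a ratio below 0. Of all genes, 9879 of 17951 did so in A2780CBN and 8077 of 17116 in A2780CBNDXL. The medians of the proliferation genes were -0.39 in A2780CBN and -0.45 in A2780CBNDXL, beside -0.060 and 0.039 over all genes. At 2-fold 1 of the 29 was called in each line, against 12.6% and 16.9% of all genes. These were GINS1 of the replication helicase at -1.06 ± 0.26 in A2780CBN and CDC2, the mitotic kinase, at -1.498 ± 0.14 in A2780CBNDXL. Of the p53 targets 9 of 19 were called in A2780CBN and 5 of 18 in A2780CBNDXL, all of them higher. Of all genes, 1436 of 17951 were called higher in A2780CBN and 1318 of 17116 in A2780CBNDXL. The death receptor gene FAS was the highest at 3.48 ± 0.10 and 3.40 ± 0.16. TP53INP1 followed with 1.87 ± 0.12 and 2.07 ± 0.22, and the cell cycle inhibitor CDKN1A read 1.34 ± 0.50 and 1.03 ± 0.13. GADD45A was at 1.60 ± 0.11 in A2780CBN and -0.36 ± 0.17 in A2780CBNDXL. Among the repair genes, DDB2, XPC and POLH are known as p53 targets and were above 0 on every usable array of both lines, with means of 1.09, 0.77 and 0.76 in A2780CBN and 0.66, 0.61 and 0.80 in A2780CBNDXL. These 3 were singled out after their values were seen. The part of growth rate or of p53 in these values was not tested.

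The motif of the E2F factors, TTTCGCGC or TTTGGCGC on either strand, was found in 1.15% of the 35116 promoter windows and in those of 2 of the 39 repair genes, FANCC and XRCC6. The GC box GGGCGG was found in 44.95% of all windows and in 35 of the 54 windows of the repair genes, 64.8%, which belong to 31 genes.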

How the data were processed

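Expression was measured on 8 two-colour Agilent arrays, 4 for A2780CBN and 4 for A2780CBNDXL. In the deposited files the authors had processed each channel's intensity with Agilent Feature Extraction (10.7.1.1 on slide 1, 10.7.3.1 on slide 2), which subtracted background and normalized dyes. Forward arrays carried the resistant line in Cy5. The dye entries of the reverse arrays repeat those of the forward ones, against their name and the methods, so they were turned over as named and the sign rests on the forward labels. Outlier spots (165 to 1006 per array) were left out, spots of a probe averaged, and log2 ratios averaged first by labelling direction, then across directions. A gene was represented by its brightest probe. Control scaling used Aquantile (limma 3.58.1, R 4.3.3, Python 3.11.15). Steps were tested on simulated data. Of the 66 probes, 64 matched a RefSeq accession, all with the same symbol. Probe coordinates are those of the files (NCBI36), whose exon annotation was not used here. Matches of a probe to other genes were not checked.

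Genes named are those called, past 1.5-fold with 1 sign on all 4 arrays, highest or lowest of their group, without a value, or with probes of opposite sign, and genes of other lists called at 2-fold. The 44 genes, the lists and the rules were chosen with earlier results of these data known. Keeping outlier spots, the neighbours of each gene, the alternatives for the other repair lists, and the count of 1.5-fold means kept under each alternative were added after seeing the data.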

Additional observations from a re-analysis of the deposited data

Results flagged for a closer look

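In 6 repair genes every array of one line lay on the opposite side of the control from every array of the other. How many of all genes do so was not counted, so the number says nothing particular about repair genes. The difference between the lines was not tested, since each line is 1 sample. On the log2 scale, A2780CBN minus A2780CBNDXL, it was 2.49 for NBN (0.88 and -1.61), 0.98 for ATR (0.20 and -0.78), 0.83 for BRCA1 (0.40 and -0.43), 0.67 for PRKDC (0.32 and -0.35), -0.38 for FANCC (-0.076 and 0.31) and -0.73 for XPA (-0.36 and 0.37). NBN alone passed 2-fold. For PRKDC a second probe did not share the direction in A2780CBN (-0.24). After scaling between arrays, its resistant channels differed by 0.010 between the lines and its control channels by -0.66. In the same order FANCC read -0.099 and 0.28, BRCA1 0.70 and -0.14, and XPA -0.68 and 0.057. Those of NBN and ATR are given above.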

How the results depend on the processing

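The calls kept their number under most alternatives. At 1.5-fold, 6 repair genes were called in A2780CBN, 10 in A2780CBNDXL and 8 of 40 as different between the lines. The shares of all genes at that limit were 27.1%, 33.3% and 32.6%. In the other repair lists 27 calls were made in place of 6. Against the control channels of the other line's arrays, 0 were called in A2780CBN (DDB2 at 0.71) and 4 in A2780CBNDXL (DDB2, ERCC2, NBN and XRCC2). Between the lines 2 were called (NBN and XRCC2), and the shares of all genes were 13.6%, 17.6% and 19.2%. The median of the repair genes in A2780CBN was then 0.031 in place of -0.028. With normexp and loess, 1 was called in A2780CBNDXL (NBN, with ERCC2 at 0.83) and 2 in the other repair lists, while the share of all genes called was 3.36% and 6.85%. With the mean over all probes of a gene, 1 was called in A2780CBNDXL (NBN, with ERCC2 at 0.86). Slide 1 alone gave 2 different between the lines (NBN and ATR), and leaving out 1 array gave 1 to 2, the second being ATR without array 3. The cause of these shifts was not tested. Leaving out arrays gave 1 to 1 calls in A2780CBN, 2 to 2 in A2780CBNDXL, and medians from -0.036 to -0.0069 and from 0.035 to 0.093. The 3-way ANOVA and limma, which take the arrays for replicates, called the same 1, 2 and 1 genes. NBN in A2780CBNDXL ranged from -1.64 to -1.31 over all alternatives. Of 1325 values of single genes recomputed, 65 moved by more than the SD between arrays. All came from the other control (35), normexp and loess (13), the mean over all probes (9) and background-subtracted signals (8). The other alternatives either left the mean as it was or, on leaving out arrays, could not shift it by that SD. The 1325 are therefore no measure of how stable the values are. No paired analysis was possible because each group is 1 sample. Precision is limited by the 4 arrays of a line.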
